A study of Homo sapiens with 6 samples.

Results

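NFAT5, the transcription factor of the response to hypertonic stress, and 5 genes that move or make organic osmolytes (SLC5A3, SLC6A6, AKR1B1, SLC38A2 and ISYNA1) were followed on Illumina bead arrays in HEK293 cells given sodium salicylate. HEK293 is an immortalised human line of embryonic kidney origin. The genes were chosen by name, with earlier results of these data known. The annotation used here named 8 of the 47323 probes for 5 of the 6 genes, and 6 of these 8 probes were detected on at least 2 arrays, as were 22377 probes in all. No probe of AKR1B1 was named in that annotation, and AKR1B1 was not analysed here.

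Cells received 50 mM sodium salicylate for 30 min or for 60 min, or none (0 min, the control), with 2 arrays in each of the 3 groups. All groups were the same line, with no change of genotype named. No mock treatment and no other sodium salt are among the groups analysed here, so salicylate, the added salt and the handling cannot be told apart. Whether the 2 samples of a group were separate cultures is not stated in the labels. The spread behind the p-values is that between these samples and may be purely technical. Arrays detected 20726 to 21740 probes, their median intensities lay between 143.1 and 147.6, and any pair correlated at 0.9906 to 0.9960 across probes. Of 7 genes taken as HEK293 markers, VIM, KRT8, KRT18, NEFL and NEFM were detected on all 6 arrays, while PAX2 and PAX8 were detected on none. No leukocyte, endothelial or erythroid marker with a probe was detected (0 of 3 in each list), whereas ALB, COL1A1 and LRP2, from the lists for hepatocytes, fibroblasts and proximal tubule, were detected on all 6 arrays. Their deposited intensities were 178 to 216, 228 to 265 and 227 to 297. The other genes of these lists were detected on fewer arrays, each by its probe detected most often. These were TTR and CUBN on 0 arrays, SLC34A1 on 1, APOA1 and LUM on 2 and DCN on 3.

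Cells in a hypertonic medium lose water, shrink, and then take up or make small organic solutes that hold water without disturbing proteins. NFAT5, also called TonEBP, is the Rel family factor that switches on the transporters and enzymes for these solutes, and cells of the kidney medulla depend on it. Its DNA element has TGGAAA at its core. SLC5A3 carries myo-inositol into the cell with sodium, SLC6A6 carries taurine, and SLC38A2 carries small neutral amino acids. ISYNA1 makes the inositol ring from glucose 6-phosphate, and AKR1B1, aldose reductase, makes sorbitol from glucose.

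None of the 6 detected probes rose at either time, and SLC5A3 was the gene that fell against the control. Of all detected probes, 0.107% rose at 30 min, and 7.73% rose and 8.54% fell at 60 min. A count of 0 rises among 6 probes is near these shares. The normalized intensity of SLC5A3 was 1.59-fold lower after 60 min. Between 30 and 60 min SLC5A3 and SLC38A2 fell by 0.43 and 0.59 on the log2 scale. NFAT5, SLC6A6 and ISYNA1 passed the test in none of the comparisons. The 2 detected probes of NFAT5 differed in sign against the control at both times. The words rose and fell are used of a probe whose Benjamini-Hochberg adjusted p from limma, taken over all 22377 detected probes, was under 0.05.

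**Figure D1:**
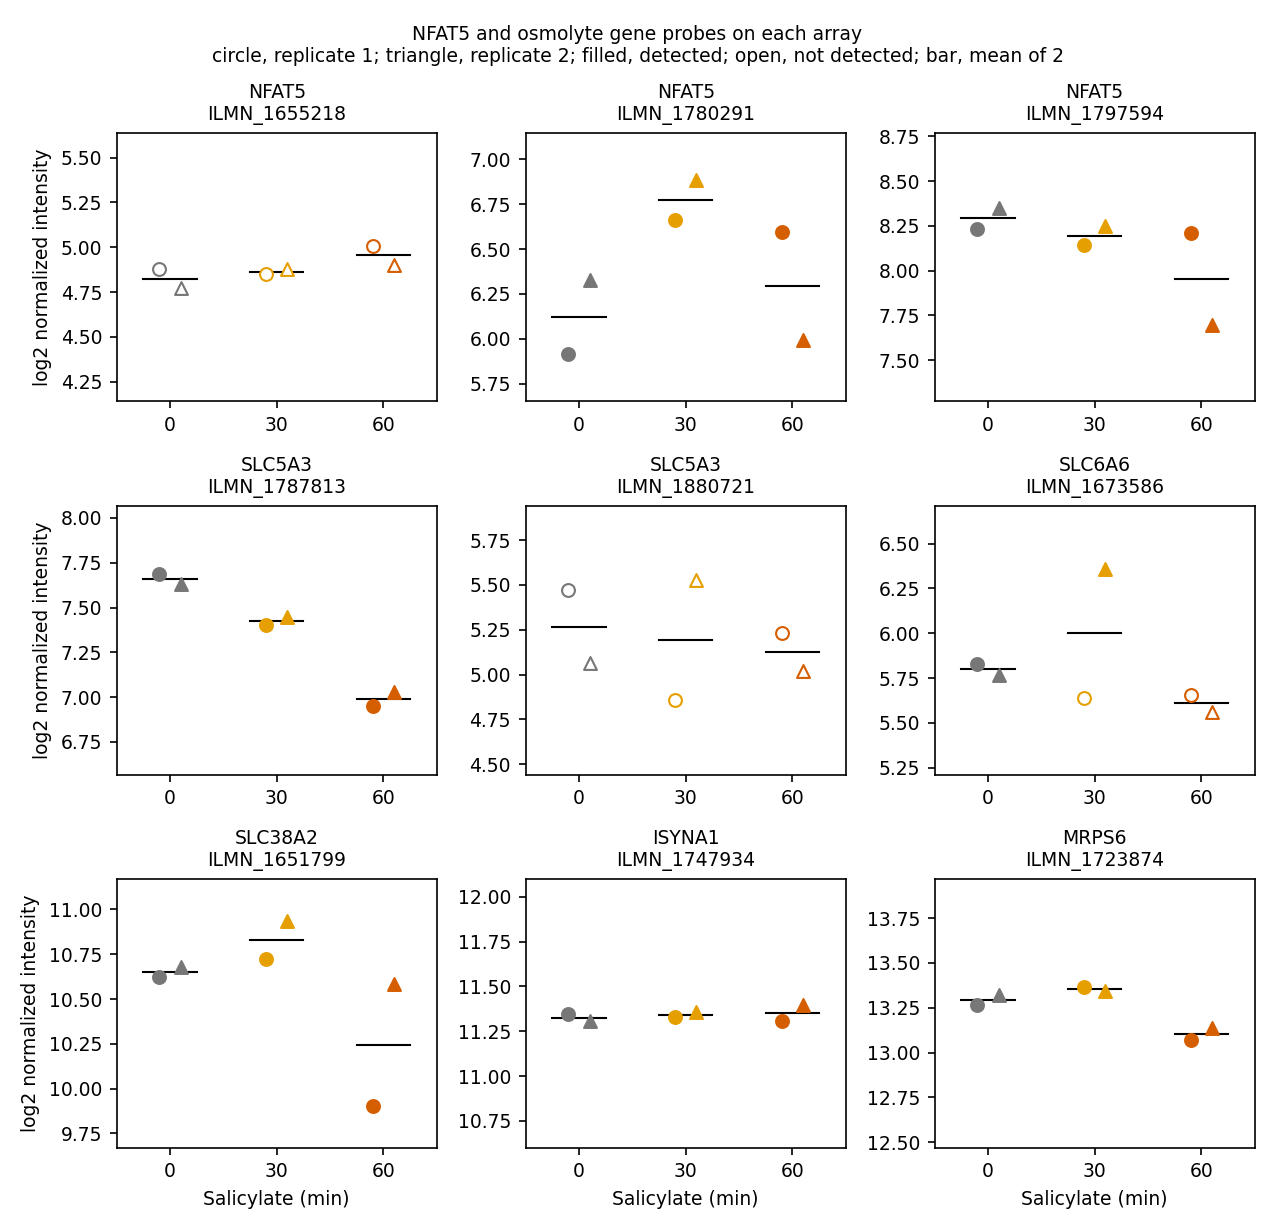
Each panel plots 1 probe, with minutes of salicylate on the horizontal axis and log2 normalized intensity on the vertical axis. Circles are replicate 1, triangles replicate 2, open symbols arrays on which the probe was not detected, and bars the mean of 2 arrays. The SLC5A3 probe ILMN_1787813 was lower on both 60 min arrays (6.95 and 7.03) than on every other array, while the 60 min arrays of SLC38A2 lay apart (9.90 and 10.58).

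SLC5A3 is annotated on chromosome 21 from 34073578 to 34106260 on GRCh38.p14. The RefSeq promoter table of that build gives it the same start as MRPS6, a gene for a protein of the mitochondrial ribosome. The 300-base windows of the 2 genes, 250 bases before to 50 after the start, are identical. The 250 bases before that start are shown because SLC5A3 is the gene that fell against the control and because both transcripts share them. They are given 5′ to 3′ on the plus strand, chr21:34073328-34073577, and the capitals mark GGGCGG, the core of the GC box, or its reverse complement.
SLC5A3 and MRPS6: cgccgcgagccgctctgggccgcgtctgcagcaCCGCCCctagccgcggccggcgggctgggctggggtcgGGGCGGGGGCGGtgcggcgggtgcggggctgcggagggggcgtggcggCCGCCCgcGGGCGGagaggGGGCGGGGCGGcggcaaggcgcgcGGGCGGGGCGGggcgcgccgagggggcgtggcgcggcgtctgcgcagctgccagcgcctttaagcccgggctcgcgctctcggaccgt

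The whole 300-base window holds 9 matches to GGGCGG, counted on both strands, and all 9 lie in the 250 bases shown. Matches that run into each other can share bases. Of the 35116 promoter windows of 300 bases in the table, 45% hold at least 1 match. The share with as many as 9 was not counted, so whether 9 is unusual is not shown. TGGAAA was searched on both strands in the windows of the chosen genes. Of the 6 genes, 4 have windows in the table, 6 windows in all, and 1 window holds the letters, that of SLC38A2, against 20.7% of all windows. The 30 bases around that match follow, on the minus strand at chr12:46372724-46372753. The reverse complement of TGGAAA is in capitals and begins at base 33, counting the annotated start as base 1.
SLC38A2: ccttagaacgccTTTCCAgtactgctagca

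A match describes the letters of a window and does not show binding. Where these windows lack the letters, nothing follows for elements elsewhere in the genes.

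NFAT5 lies on chromosome 16 from 69565966 to 69704654. Its brighter probe, ILMN_1797594, had log2 normalized intensities of 8.24 and 8.35 at 0 min, 8.14 and 8.25 at 30 min, and 8.21 and 7.69 at 60 min. The first 60 min array lay just below the controls and the second well below them. The log2 difference of 60 min from control was -0.34 (95% interval -0.66 to -0.02, adjusted p = 0.141), and that of 30 min from control was -0.10 (adjusted p = 0.873). Without the first 60 min array the 60 min difference was -0.60 (adjusted p = 0.00644), and without the second it was -0.08 (adjusted p = 0.716).

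The dimmer NFAT5 probe, ILMN_1780291, had 5.91 and 6.33 at 0 min, 6.66 and 6.89 at 30 min, and 6.59 and 5.99 at 60 min, on the same log2 scale. Both 30 min arrays were above both control arrays, whereas the 60 min arrays overlapped the controls. The 30 min difference was 0.65 ± 0.22 (SE, interval 0.18 to 1.13). It missed the test (unadjusted p = 0.0115, adjusted p = 0.350). Of detected probes, 99.8% had a 30 min difference this high or lower. That rank is taken over probes of all intensities, and the SE of this dim probe is above the median SE of 0.116. Without background correction the same difference was 0.30. At 60 min the difference from control was 0.17 (adjusted p = 0.654), and it took the other sign without the first control array (-0.03) or without the first 60 min array (-0.13). From 30 to 60 min the differences of the brighter and the dimmer probe were -0.24 and -0.48 (adjusted p = 0.307 and 0.167). Both passed without the first 60 min array (adjusted p = 0.0208 and 0.0448). Without the second 60 min array the brighter probe's difference was 0.02. The third NFAT5 probe, ILMN_1655218, was detected on 0 arrays. Which NFAT5 transcripts each probe reads was not analysed here.

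SLC5A3, the myo-inositol transporter, had deposited intensities of 295.5 and 333.6 at 0 min, 280.1 and 283.3 at 30 min, and 226.5 and 231.6 at 60 min (probe ILMN_1787813). The log2 normalized intensities were 7.69 and 7.63, then 7.40 and 7.45, then 6.95 and 7.03. The 3 groups did not overlap, and they stood in the order of time. The mean was 6.99 ± 0.06 at 60 min and 7.66 ± 0.04 in the controls (SD, n = 2 each), a log2 difference of -0.67 ± 0.12 (SE, interval -0.93 to -0.40, adjusted p = 0.00384). A difference this low or lower was found for 0.862% of detected probes. The call was kept in all 16 alternative settings, with differences from -0.74 to -0.40 and adjusted p from 0.000639 to 0.0424. The smallest difference, -0.40, came without background correction.

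At 30 min the SLC5A3 probe stood at 7.42 ± 0.03, against 7.66 ± 0.04 in the controls, a difference of -0.23 (interval -0.50 to 0.03, adjusted p = 0.552). From 30 to 60 min it fell by 0.43 on the log2 scale (interval of the difference -0.70 to -0.17, adjusted p = 0.0318). This last call was lost when either control array, either 30 min array or the first 60 min array was left out (adjusted p = 0.054, 0.0543, 0.115, 0.157 and 0.099), and also with no detection filter or with only the 2 groups in the fit. The other SLC5A3 probe, ILMN_1880721, was detected on 0 arrays, so the fall rests on 1 probe.

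MRPS6 shares the start of SLC5A3, and its probe is far from the detection limit. Its log2 values were 13.26 and 13.32 at 0 min, 13.37 and 13.34 at 30 min, and 13.07 and 13.14 at 60 min. It fell by 0.19 at 60 min against control (interval of the difference -0.30 to -0.07, adjusted p = 0.0344) and by 0.25 from 30 to 60 min (adjusted p = 0.00968). The first of these calls was lost without the first control array, the second control array or the first 60 min array (adjusted p = 0.089, 0.2 and 0.136), and the second without the first 30 min array (adjusted p = 0.0638). Median scaling or a fit without the variance trend ended both calls, and cyclic loess or no detection filter ended the first (adjusted p = 0.0645 and 0.061). The difference between the changes of the 2 genes was not tested.

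SLC6A6, the taurine transporter, lies on chromosome 3 from 14402576 to 14489349. Its 1 probe was detected on 3 of 6 arrays, namely both control arrays and the second 30 min array. The log2 values were 5.83 and 5.77 at 0 min, 5.64 and 6.36 at 30 min, and 5.65 and 5.56 at 60 min. At 60 min the probe was not above background, so its signal was compared through a bound on the means that ignores their spread. The 60 min mean was 1.14-fold lower than the control mean and 1.31-fold lower than the 30 min mean. With the bound in place of the 60 min mean, these folds were 1.07 and 1.23. Neither difference passed the test (adjusted p = 0.646 and 0.304). Their intervals, -0.70 to 0.32 and -0.91 to 0.12 on the log2 scale, include no change, so no minimum decrease of the signal is shown. The 30 min and 60 min arrays overlapped, and the bound against 30 min rests on the second 30 min array. The log2 difference of 60 min from 30 min was -0.39, but -0.03 without that array (adjusted p = 0.958) and -0.75 without the first 30 min array (adjusted p = 0.0902). Such a bound sets the mean of the brighter group against the higher of the probe's own value and the lowest detected signal on each dimmer array. The 30 min difference from control was 0.20 (adjusted p = 0.821), and it became -0.16 without the second 30 min array.

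SLC38A2, the amino acid transporter also called SNAT2, lies on chromosome 12 from 46358188 to 46372773. Its deposited intensities were 1558 and 1981 at 0 min, 1871 and 2120 at 30 min, and 989.7 and 1576 at 60 min. On the log2 scale these became 10.62 and 10.68, then 10.72 and 10.94, then 9.90 and 10.58. Both 60 min arrays were below every other array, but they differed from each other by more than any other pair of replicates of this probe. The mean was 10.24 ± 0.48 at 60 min and 10.83 ± 0.15 at 30 min (SD, n = 2 each), a fall of 0.59 on the log2 scale (interval of the difference -0.93 to -0.24, adjusted p = 0.0253). This fall was -0.92 as a log2 difference without the second 60 min array (adjusted p = 9.49e-05). Without the first 60 min array it was -0.25, and the call was lost (adjusted p = 0.0961), as it was without either 30 min array (adjusted p = 0.0507 and 0.157) or without the variance trend.

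Against the controls, at 10.65 ± 0.04, the 60 min difference of SLC38A2 was -0.41 (interval -0.75 to -0.07) and missed the test (adjusted p = 0.099). It passed with median scaling (-0.50, adjusted p = 0.00298) and without the second 60 min array (-0.74, adjusted p = 0.000487). Without the first 60 min array it was -0.07 (adjusted p = 0.668). At 30 min the difference from control was 0.18 (adjusted p = 0.75).

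ISYNA1, the inositol phosphate synthase, lies on chromosome 19 from 18434388 to 18438133. Its log2 values were 11.35 and 11.30 at 0 min, 11.33 and 11.36 at 30 min, and 11.31 and 11.39 at 60 min. The 3 groups overlapped. The differences from control were 0.02 at 30 min (interval -0.11 to 0.15, adjusted p = 0.954) and 0.03 at 60 min (interval -0.11 to 0.16, adjusted p = 0.815). ISYNA1 thus had a narrow interval at both times, whereas that of the dim SLC6A6 probe at 60 min ran from -0.70 to 0.32. The enzyme AKR1B10, a close paralog of AKR1B1, has 1 probe, detected on 0 arrays.

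**Figure D2:**
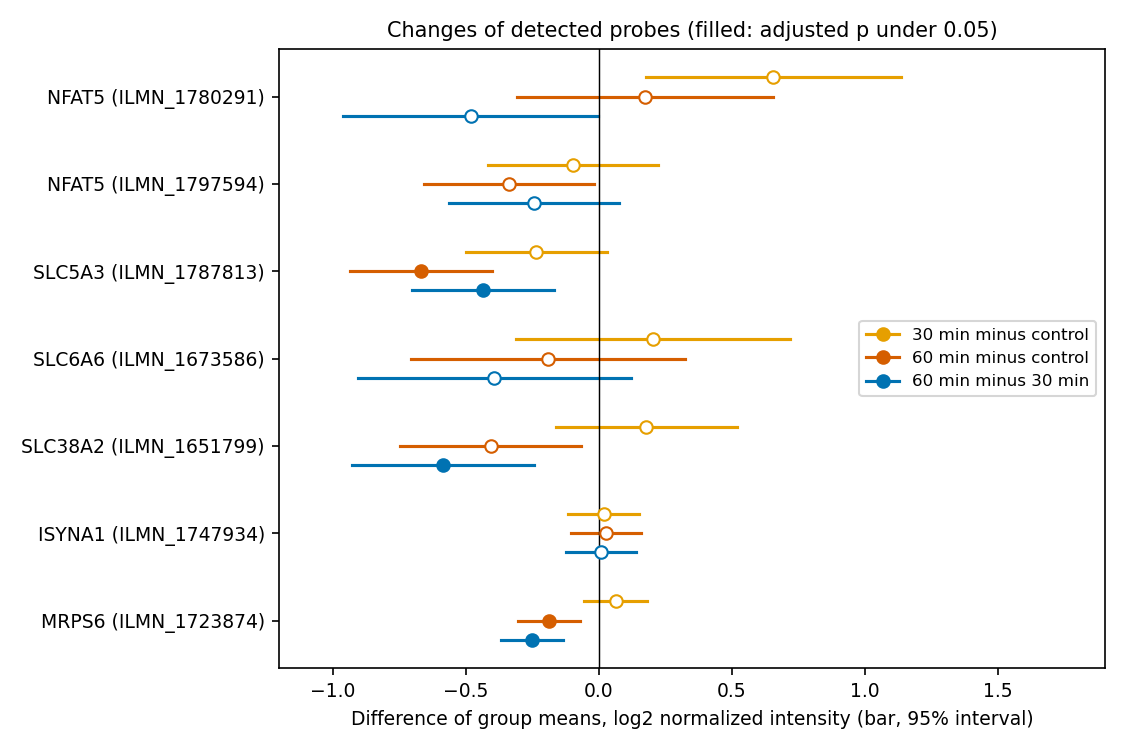
The plot shows, for each detected probe, the difference of group means in log2 normalized intensity on the horizontal axis, with its 95% interval as a bar, for 30 min minus control, 60 min minus control and 60 min minus 30 min. Filled circles have an adjusted p under 0.05. The SLC5A3 probe is filled at 60 min against control (-0.67) and against 30 min (-0.43), the SLC38A2 probe against 30 min (-0.59), and MRPS6, shown for comparison, in both 60 min comparisons.

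At 30 min against control 0 of the 6 probes passed the test and 1 had an unadjusted p under 0.05, as did 10.3% of all detected probes. Of all detected probes, 0.232% passed (0.107% or 24 higher and 28 lower, or 45 and 100 with median scaling). Both arrays of the 2 groups were apart for 3 of the 6 probes, 2 higher (ILMN_1780291 of NFAT5 and SLC38A2) and 1 lower (SLC5A3), against 21.8% of all probes higher and 21.2% lower. These shares are near the background.

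At 60 min against control 1 of the 6 probes had fallen and 0 had risen. Of all detected probes 8.54% had fallen and 7.73% had risen, 16.3% in all. With 6 probes, counts of 1 and 0 cannot be told apart from these shares. In 4 of the 6 both 60 min arrays were below both control arrays (28% of all probes), and in 0 of the 6 both were above (28.3%). The median difference of the 6 was -0.26, against 0.0012 over all detected probes. The 6 include SLC6A6, which was kept through its control and 30 min arrays. With median scaling the split of calls over all probes moved to 526 higher and 1594 lower, against 1730 and 1912 as measured here.

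From 30 to 60 min 2 of the 6 probes fell and 0 rose, where 7.98% of all probes fell and 7.49% rose, 15.5% in all. Median scaling gave 553 higher and 1524 lower over all probes, against 1676 and 1786. The 60 min arrays were below both 30 min arrays in 3 of the 6 (28.2% of all probes) and above both in 0 of the 6 (27.2%). The 6 probes had a median of -0.41, and all probes one of -0.0033. That median again includes SLC6A6, kept through its control and 30 min arrays and detected on neither 60 min array. Its difference here was -0.39, but -0.03 without the second 30 min array. The 3 comparisons share arrays, so they are not separate evidence.

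**Figure D3:**
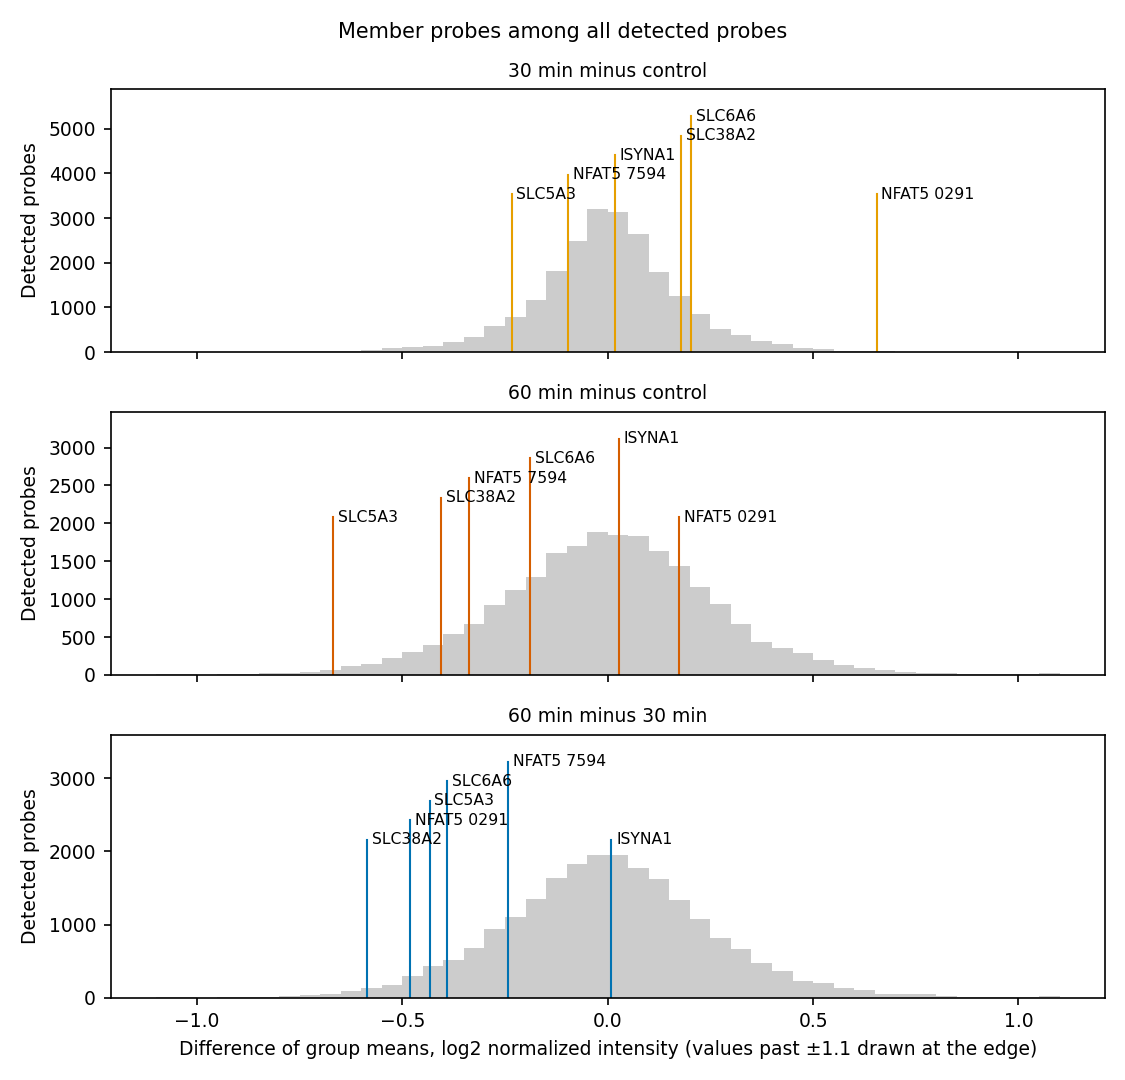
The 3 panels show the distribution over 22377 detected probes of the log2 difference of group means (horizontal axis, with values past the axis drawn at its edge) for 30 min minus control, 60 min minus control and 60 min minus 30 min, with the number of probes on the vertical axis. Vertical lines mark the 6 detected probes of the chosen genes, and the NFAT5 probes carry the last digits of their identifiers. At 60 min the SLC5A3 line stands at -0.67 in the left tail, and the ISYNA1 line stands near 0 in all panels.

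Other genes of osmotic and volume regulation were taken from 7 lists, with each gene represented by its detected probe of highest mean. Leaving out the 6 chosen genes, 88 genes were detected. At 30 min 0 of the 88 passed the limma test, and 13 had an unadjusted p under 0.05. Among all 12547 named genes, taken by the same rule, 0.151% rose, 0.167% fell and 10.7% had an unadjusted p under 0.05. At 60 min against control 1 of the 88 rose (1.14%), 16 fell (18.2%) and 71 did not pass, where 8.92% of all named genes rose and 10.8% fell. The median difference of the 88 was -0.04, and that of all named genes was -0.0083. The lists were chosen with earlier results of these data known, so their shares are a description.

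The largest falls were among known NFAT5 targets and other genes induced by high tonicity. Of these, 5 of 14 fell (35.7%, against 10.8% of all named genes) and 0 rose (against 8.92%, median -0.04). CCL2, a chemokine that draws monocytes, had log2 values of 8.29 and 8.31 at 0 min, 8.17 and 8.13 at 30 min, and 7.33 and 7.35 at 60 min. Its 60 min difference from control was -0.96 (adjusted p = 0.000227), larger than that of SLC5A3. ATP1B1, the beta subunit of the sodium pump, had 11.01 and 11.05 at 0 min, 10.66 and 10.69 at 30 min, and 10.48 and 10.30 at 60 min (difference -0.64, adjusted p = 0.000285). SGK1, a kinase that raises sodium transport, had 10.01 and 10.09, then 10.11 and 10.19, then 9.31 and 9.50 (difference -0.65, adjusted p = 0.000557). For CCL2 and SGK1 both 60 min arrays were below all others, and for ATP1B1 the groups stood in the order of time.

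S100A4, a calcium-binding protein, fell by 0.59 at 60 min (adjusted p = 0.0134), a call lost without the first control array (adjusted p = 0.15). SLC7A5, a transporter of large neutral amino acids, fell by 0.29 (adjusted p = 0.0146), a call lost without the first control array, the second control array or the second 60 min array (adjusted p = 0.112, 0.0667 and 0.0896). HSPA1B, an inducible heat shock protein, had a difference of -0.05 and ATF4, a factor that drives amino acid transporter genes, one of -0.03, and neither passed. The other ATF4 probes had 0.73 and -0.05, so the probes of ATF4 disagree. HSPA1B has a near-identical copy, HSPA1A, and its probe may read both. HSPA4L, which NFAT5 is known to induce, is added here after its value was seen and had a difference of 0.15 (adjusted p = 0.257).

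Of 10 detected osmolyte transporters, the chosen genes included, 2 fell (20%, against 10.8% of all named genes) and 0 rose (against 8.92%, median -0.17). Beside SLC5A3 this was SLC6A8, the creatine transporter, with log2 values of 10.21 and 10.23 at 0 min, 10.11 and 10.10 at 30 min, and 9.95 and 9.82 at 60 min. Its 60 min difference from control was -0.33 (adjusted p = 0.00898), and the call was lost without the first or the second control array (adjusted p = 0.057 and 0.0762). SLC44A1, a choline transporter, and SLC38A1, a relative of SLC38A2, had differences of 0.12 and -0.21 and did not pass. The other detected probes of these genes had 0.31 and -0.28. SLC6A12, the betaine transporter, is also added after its value was seen, with a difference of -0.03 (adjusted p = 0.945) on a dim probe.

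Among 11 genes for making or breaking down osmolytes, 1 rose and 1 fell at 60 min (median 0.03). Each is 9.09% of the list, near the 8.92% and 10.8% of all named genes. ALDH7A1, an aldehyde dehydrogenase that can make betaine from betaine aldehyde, was the gene that rose. Its log2 values were 12.14 and 12.20 at 0 min, 12.26 and 12.25 at 30 min, and 12.44 and 12.52 at 60 min (difference 0.31, adjusted p = 0.0037), with both 60 min arrays above all others. The call was lost with median scaling and without the variance trend (adjusted p = 0.0852 and 0.0724). PNPLA6, an esterase that releases glycerophosphocholine, fell by 0.24 (adjusted p = 0.0318). That call was lost without any one of the 4 arrays compared (adjusted p = 0.0852 and 0.202 without the control arrays, 0.0823 and 0.0533 without the 60 min arrays). IMPA2, an inositol monophosphatase, had a difference of 0.16 and did not pass.

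Of 24 regulators of NFAT5, 3 fell at 60 min (12.5%, near the 10.8% of all named genes) and 0 rose (against 8.92%, median -0.02). These were PIK3R1, a regulatory subunit of PI 3-kinase (-0.37, adjusted p = 0.0363), CCM2, a scaffold of the p38 pathway (-0.24, adjusted p = 0.0204), and FYN, a Src family kinase (-0.23, adjusted p = 0.0252). Each of the 3 calls failed when 1 control array (the first or the second) or the second 60 min array was left out, and that of PIK3R1 also without the first 60 min array. The highest adjusted p was 0.152 for PIK3R1, 0.129 for CCM2 and 0.164 for FYN. PARP1, a partner of NFAT5, and the chaperone HSP90AB1 had differences of -0.14 and 0.07 and did not pass.

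Cell volume is also set by ion movements, which WNK kinases govern through the kinases SPAK (STK39) and OSR1 (OXSR1). In that list 2 of 13 genes fell (15.4%, against 10.8% of all named genes) and 0 rose (against 8.92%, median -0.0086). OXSR1 had 11.70 and 11.71 at 0 min, 11.60 and 11.70 at 30 min, and 11.23 and 11.21 at 60 min (difference -0.48, adjusted p = 0.000513). CAB39, a scaffold that activates both kinases, fell by 0.24 (adjusted p = 0.0135), a call lost without the first or the second control array (adjusted p = 0.0791 and 0.0839). STK39 and WNK1 had differences of 0.08 and -0.07 and did not pass. The other detected WNK1 probe had 0.24, so the probes of WNK1 differ in sign.

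Of 13 volume-regulated channels, exchangers and water channels, 3 fell (23.1%, against 10.8% of all named genes) and 0 rose (against 8.92%, median -0.16). LRRC8A, the subunit that the volume-regulated anion channel cannot do without, and its partner LRRC8B fell by 0.38 and 0.29 (adjusted p = 0.0414 and 0.0456). Without the second 60 min array these differences were -0.23 and -0.18 and the calls were lost (adjusted p = 0.219 and 0.231), as they were without the first control array (0.175 and 0.212) and the second (0.16 and 0.144). The call of LRRC8B was also lost with no detection filter and with the replicate block (adjusted p = 0.058 and 0.0608). SLC4A2, an anion exchanger, fell by 0.26 (adjusted p = 0.0193), and its call was lost without either control array or the first 60 min array (adjusted p = 0.0848, 0.129 and 0.0856). PIEZO1, a stretch-gated channel, and ANO6 had differences of 0.16 and -0.10 and did not pass.

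Among 7 relatives of NFAT5 in the NFAT and Rel families, 1 fell (14.3%, against 10.8% of all named genes) and 0 rose (against 8.92%, median -0.11). NFKB1 had log2 values of 10.80 and 10.86 at 0 min, 10.82 and 10.69 at 30 min, and 10.43 and 10.29 at 60 min (difference -0.47, adjusted p = 0.00163). NFATC3 and RELA had differences of -0.08 and -0.04 and did not pass. Over all lists, 6 of the 17 calls (CCL2, ATP1B1, SGK1, OXSR1, NFKB1 and ALDH7A1) were kept in each of the 6 omissions of 1 array, and 11 were lost in some. With SLC5A3 added to the 17, a fit without the variance trend lost 13 of 18 calls and kept those of SLC5A3, CCL2, ATP1B1, SGK1 and OXSR1. Median scaling lost 6, those of ALDH7A1, CAB39, FYN, CCM2, SLC4A2 and PNPLA6 (adjusted p from 0.058 to 0.127). With no detection filter those of PNPLA6 and PIK3R1 were lost beside that of LRRC8B (adjusted p = 0.0536 and 0.0593), and that of PIK3R1 also with only the 2 groups in the fit (0.0522).

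**Figure D4:**
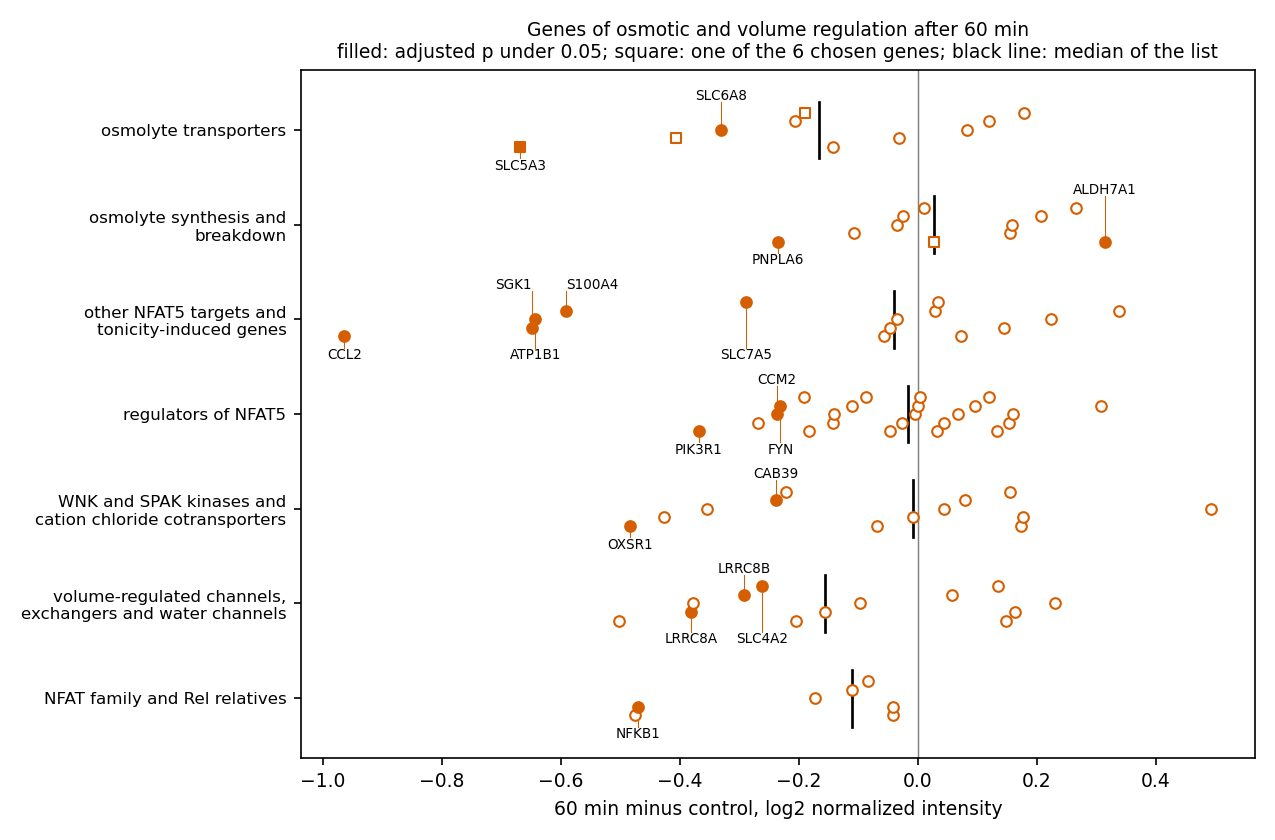
Each point is a gene of the 7 lists, placed by its log2 difference of 60 min from control (horizontal axis), with filled symbols for an adjusted p under 0.05, squares for the chosen genes and a black line at the median of the list. The named points left of 0 are the genes that fell, from CCL2 at -0.96 to FYN at -0.23, and the ALDH7A1 point at 0.31 is the filled one to the right.

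From 30 to 60 min 5 of the 88 genes rose (5.68%) and 10 fell (11.4%), where 9.43% of all named genes rose and 10.1% fell. The 5 that rose, named here after their values were seen, were ALDH7A1, IMPA2, PTPN6, SLC12A4 and LRRC8E. Each of these 5 calls was lost in some omission of 1 array, with a highest adjusted p of 0.108, 0.135, 0.166, 0.239 and 0.249 in that order. Over both directions, 3 of the 15 calls (SGK1, CCL2 and OXSR1, also named after their values were seen) were kept in all 6 omissions.

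The genes with the pattern most like that of SLC5A3 over the 6 arrays were sought among 12546 other named genes. The measure was the Euclidean distance between log2 values, each centred on its own mean, with a median of 0.729 over these genes. The nearest were MRPL57, a gene of the mitochondrial ribosome (distance 0.0863), PSKH1, a protein kinase (0.122), and ZNF667, a zinc finger protein (0.14). Their 60 min differences from control were -0.63, -0.72 and -0.69, beside -0.67 for SLC5A3. The values of these 3 genes are a description, since they were chosen for this pattern.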

How the data were processed

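Probe intensity was measured in 6 samples, 2 per group. The authors deposited, per the file headers, an intensity on a linear scale and a detection p-value for each probe and array. They also deposited log2 values, which differed by at most 5e-07 from quantile normalized log2 intensities without background correction (median 7.19 in every column). The submitters' processing notes name GenomeStudio 2011.1 and R 2.15.3; other steps are not given in the sources used here. The alternative without background correction was recomputed from the deposited intensities, as quantile normalized log2 values.

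Intensities were corrected with limma 3.58.1 in R 4.3.3 (neqc, offset 16, with negative controls estimated through the detection p-values), quantile normalized and taken to log2. Probes with a detection p-value under 0.05 on at least 2 arrays were kept. One limma fit with a mean for each group, pooled spread and a variance trend gave 3 comparisons, with p-values adjusted over all probes. Precision is limited by the number of arrays (3 residual degrees of freedom, prior 9.25, median SE 0.116 on the log2 scale). The fit was tested on simulated data. Samples with the same replicate number showed no large shared deviation (correlations of deviations 0.0313, 0.0779 and -0.0778 across probes). This cannot show that the samples were unpaired.

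Probes were named through the platform annotation, updated to RefSeq names of GRCh38.p14. Of all probes 30113 had 1 symbol and 8 had several, and the table used here gave none for 17202. Promoter sequences are those of RefSeq on GRCh38.p14. The members and gene lists were chosen with earlier results of these data known. By rule the text names all member probes, MRPS6 and AKR1B10, of each list the genes past the threshold against control (at most 8) and up to 2 of the most intense that did not pass, and the 3 genes nearest in pattern. Alternatives changed the background correction, the scaling, the filter, the groups fitted, the variance trend, the replicate block, the probes per gene and each array left out. Where an omission left 1 array in a group, that array was assumed to vary like the other groups.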

Additional observations from a re-analysis of the deposited data

How the results depend on the processing

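The call of SLC5A3 at 60 min against control was kept in all 16 settings. Among the chosen genes and the lists, 18 genes were called in that comparison. Of these, 5 kept the call in every setting (SLC5A3, CCL2, ATP1B1, SGK1 and OXSR1). MRPS6 and the 3 genes nearest to SLC5A3 in pattern are not counted in the 18. None of the 18 changed direction. Without the variance trend 13 of the 18 calls were lost, and 6 with median scaling. Over all probes, median scaling gave 145, 2120 and 2077 calls (30 min and 60 min against control, 60 min against 30 min), and no variance trend gave 7, 1084 and 722, against 52, 3642 and 3462. Fitting only the 2 groups compared gave 198 at 30 min. Leaving out 1 array gave 14 to 193, 1308 to 3542 and 1299 to 3163.

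Member probes called at 60 min against control numbered 2 with median scaling or the replicate block and 1 to 2 with 1 array left out, against 1. From 30 to 60 min they numbered 1 without the detection filter, with only the 2 groups or without the variance trend, and 0 to 2 with 1 array left out, against 2. Genes called in the lists at 30 min numbered 1 with only the 2 groups, and 0 to 1 with 1 array left out. At 60 min they numbered 11 with median scaling, 4 without the variance trend and 6 to 17 with 1 array left out, against 17. From 30 to 60 min they numbered 3 without the variance trend and 5 to 12 with 1 array left out, against 15. The cause was not tested.

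No large deviation shared by replicate number was seen. The replicate block gave 39, 3567 and 3369 calls over all probes, 0, 2 and 2 member probes, and 0, 16 and 15 genes of the lists. With the block SLC38A2 passed at 60 min against control (adjusted p = 0.0451) and LRRC8B no longer did (adjusted p = 0.0608).

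Differences that changed sign did not pass the test in the settings concerned. With median scaling ISYNA1 had -0.035 at 60 min against control and -0.0558 against 30 min. With 1 array left out, ISYNA1 ranged from -0.0026 to 0.0376 (30 min), from -0.0159 to 0.0692 (60 min) and from -0.0337 to 0.0518 (60 min against 30 min), SLC6A6 from -0.16 to 0.56 (30 min), NFAT5 ILMN_1780291 from -0.13 to 0.48 (60 min) and NFAT5 ILMN_1797594 from -0.50 to 0.0167 (60 min against 30 min). The slide could not be used as a block, since no slide was read from the files used here. For the dim probes of SLC6A6 and NFAT5, signal over background limits what can be seen.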
